A study of Nannospalax ehrenbergi and Mus musculus with 25 samples.

Results

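The hypoxia-inducible factor (HIF) pathway was followed through 10 genes chosen by name, namely Hif1a, Epas1, Hif3a, Egln1, Egln2, Egln3, Vhl, Vegfa, Ca9 and Bnip3. All 10 were found by symbol among the 27988 genes of the Spalax table and the 47593 of the mouse table, with mouse Car9 read as Ca9. The rule used names and no measured value, although earlier results of these data were known when it was set. All 10 passed the filter on low values in each of the 9 comparisons made here.

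RNA-seq had been performed on neck muscle and tumors of Spalax, a burrowing mole rat known for its tolerance of low oxygen, and of C57BL/6 mice. A single subcutaneous injection of the carcinogen 3-methylcholanthrene (3MCA) was placed in the left flank of the neck, with 1 mg per Spalax and 200 µg per mouse. Tissue came from the injected side (IS) or the uninjected side (UIS). The comparisons ask how tumors differ from muscle away from the injection, and whether muscle of tolerant or tumor-bearing animals differs from that of untreated animals.

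Spalax were field-caught animals of about 2 to over 10 years. The control group held 4 untreated females, sampled on the uninjected side. Tolerant Spalax received 3MCA and grew no tumor, and 4 of them were sampled on the injected side, 2 after 18 months and 2 after 30 months. Granuloma, a benign growth, was present in animals 600 (14 months) and 976 (16 months), and fibrosarcoma in animals 2240 (18 months) and 2230 (30 months). Each of these 4 gave an IS and a UIS library. Male mice of 3 to 4 months comprised 3 untreated controls and 3 with fibrosarcoma, namely 1019 (14 weeks), 1023 (12 weeks) and 512 (11 weeks), each with an IS and a UIS library. Tolerant 2251, 2261 and 2218 and fibrosarcoma 2230 were males and the other Spalax females, so sex was not balanced between tolerant and control animals. Replicates are separate animals. The p-values of the main test rest on the spread between these few, moved toward the spread of all genes tested. That test did not use the pairing of the sides of an animal.

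HIF is a transcription factor made of an oxygen-regulated alpha subunit and the stable partner ARNT. In oxygenated cells prolyl hydroxylases encoded by the Egln genes modify the alpha subunit, which the von Hippel-Lindau protein then marks for destruction, while in hypoxia the subunit persists and activates genes of vessel growth, glycolysis and pH control. The pathway therefore acts largely on protein, whereas the values here are RNA. In skeletal muscle it is known for adjusting vessels and energy metabolism, and in solid tumors for the response to poor oxygen supply.

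The modified prolines lie in short recognition motifs, shown here because they set the alpha subunits apart before any expression value is read. A search of the mouse coding sequences (GENCODE vM21, build GRCm38) for leucine, any residue, any residue, leucine, alanine, proline found 2 sites in Hif1a, 2 in Epas1 and 1 in Hif3a. Capitals mark the 6 codons of the motif.
Hif1a, codons 397 to 402 of 836, exon 9, chr12:73939689-73939706, plus strand: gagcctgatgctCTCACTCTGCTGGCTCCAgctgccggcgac
Hif1a, codons 572 to 577, exon 12, chr12:73941976-73941993, plus strand: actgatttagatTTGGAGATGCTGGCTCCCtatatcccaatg
Epas1, codons 400 to 405 of 874, exon 9, chr17:86824570-86824587, plus strand: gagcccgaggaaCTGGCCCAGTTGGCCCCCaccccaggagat
Epas1, codons 525 to 530, exon 12, chr17:86827513-86827530, plus strand: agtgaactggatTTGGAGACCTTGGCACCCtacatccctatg
Hif3a, codons 484 to 489 of 664, exon 12, chr7:17041205-17041222, minus strand: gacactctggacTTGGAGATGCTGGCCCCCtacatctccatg

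Expression is given as the deposited normalised read count, that is, reads per gene divided by 1 size factor per library. Libraries held 17025447 to 23386729 reads in Spalax and 22143060 to 31179183 in mouse, and a value of 10 rests on 6.95 to 19.3 reads. The summed level of 7 muscle fiber markers was 948163 to 2955641 in Spalax libraries outside the tumors and 184 to 3857 in the 4 tumors. In mouse the sum of 10 such markers was 1056543 to 4427106 outside and 205 to 71753 in the tumors. In bulk tissue fewer cells of a type and less RNA per cell cannot be told apart.

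Of the libraries, 3 stood apart. Granuloma UIS 976 had by far the highest Bnip3 of the Spalax libraries, and its run name in the labels carries another animal number. Mouse UIS 512 had the highest Bnip3 in mouse. Tolerant 2251 held more fibroblast and macrophage RNA than any other Spalax library outside the tumors, with summed marker levels of 206051 (8 genes) and 14156 (6 genes). Several results that rest on them are given with and without them.

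**Figure D1:**
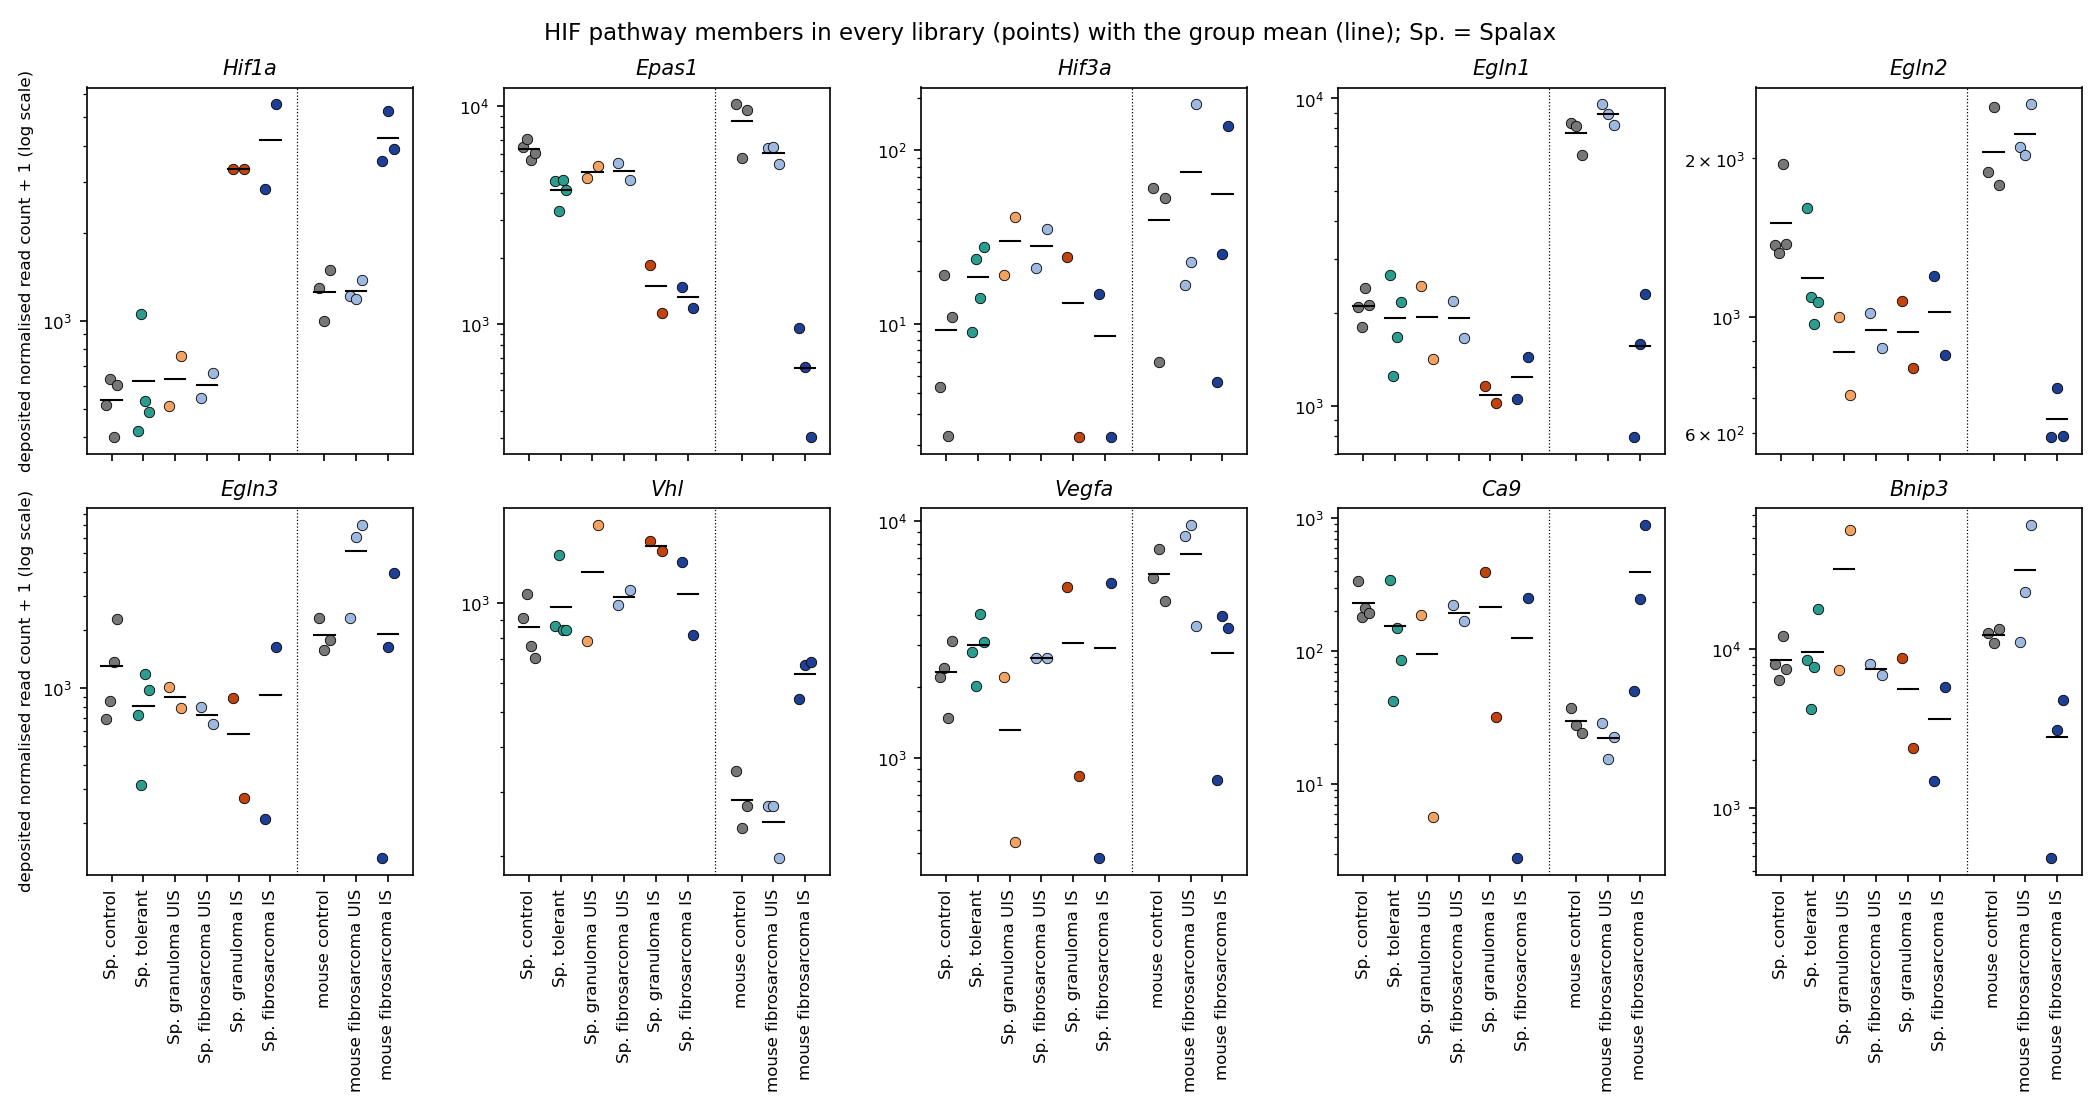
Deposited normalised read count plus 1 (log axis) of each of the 10 genes in every library. Points are libraries, colored by group, lines are group means, and the dotted line divides Spalax from mouse. Hif1a sits at 2833 to 5546 in the Spalax tumors and at 398 to 1056 in the other Spalax libraries.

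The alpha subunit genes are described first. Hif1a, the most widely expressed of them, reached 3323 and 3312 in the granulomas of 600 and 976, and 5546 and 2833 in the fibrosarcomas of 2240 and 2230. On the uninjected side the same animals had 509, 757, 662 and 543. All 4 tumors thus lay above all 4 UIS libraries, and also above the 398 to 630 of the controls and the 418 to 1056 of tolerant muscle.

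Hif1a rose in every comparison of sides. The log2 fold change on the scale of value plus 1 was 2.42 ± 0.35 (SE, 2 against 2 libraries) in granuloma, with an adjusted p of 0.0127 in limma. It was 2.72 ± 0.39 in Spalax fibrosarcoma (limma adjusted p = 0.0113) and 2.57 ± 0.25 over all 4 Spalax tumors (limma adjusted p = 4.65e-05). Within animals Hif1a was higher on the injected side in 4 of 4 Spalax, by 2.13 to 3.06.

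In mouse the tumors had Hif1a values of 3541 (1019), 5248 (1023) and 3901 (512), and the uninjected sides of the same mice 1221, 1191 and 1383. The groups did not overlap, and the 3 controls lay at 995 to 1489. Hif1a rose by a log2 fold change of 1.72 ± 0.23 (SE, 3 against 3, limma adjusted p = 0.0031).

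Epas1 encodes the HIF2 alpha subunit, which is prominent in vessel-lining cells, and it moved the opposite way. Its value was 1865 and 1120 in the granulomas of 600 and 976, against 4678 and 5305 on their uninjected sides. Fibrosarcomas 2240 and 2230 had 1188 and 1479, against 4581 and 5471. No tumor reached any UIS library. Epas1 fell, with a log2 fold change of -1.78 ± 0.38 in granuloma (limma adjusted p = 0.0298), -1.92 ± 0.25 in fibrosarcoma (0.0088) and -1.85 ± 0.21 over all Spalax tumors (0.000105). The granuloma call was lost with edgeR (-1.67, adjusted p = 0.0507) and with total-read scaling (-1.05, limma adjusted p = 0.0767). It was also lost on leaving out any of its 4 libraries, which left 1 library in a group. Epas1 was then at -2.15 without tumor 600, -1.42 without tumor 976, -1.88 without UIS 600 and -1.69 without UIS 976.

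Mouse Epas1 fell too, to 957, 633 and 303 in tumors 1019, 1023 and 512 from 6394, 6460 and 5410 on the uninjected side. Its log2 fold change was -3.41 ± 0.42 (limma adjusted p = 0.00258). The summed level of 8 endothelial markers was lower together with Epas1 in the Spalax tumors. It was 3484 to 5482 in the Spalax tumors and 9180 to 10413 on their uninjected sides, with 7 of the 8 markers called lower and none at 0. In mouse it was 1854 to 10866 against 8975 to 14905, with 1 of 8 called lower. In mouse 1019 the endothelial sum was higher in the tumor (10866) than on the uninjected side (8975), while Epas1 was lower there by a log2 difference of -2.74. The part of these cells in the Epas1 values was not tested.

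The ratio of the 2 subunit genes within a library is free of the size factor. Hif1a was 7.09% to 32.0% of Epas1 in the 12 Spalax libraries outside the tumors, the highest being tolerant 2251, and 178% to 467% in the 4 Spalax tumors. In mouse it was 12.8% to 25.6% outside and 370% to 1289% in the tumors. These are ratios of values that are not corrected for gene length, so their change between libraries, not the point where they cross 100%, carries the information. This ratio was chosen after the values had been seen and is a description with no test.

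**Figure D2:**
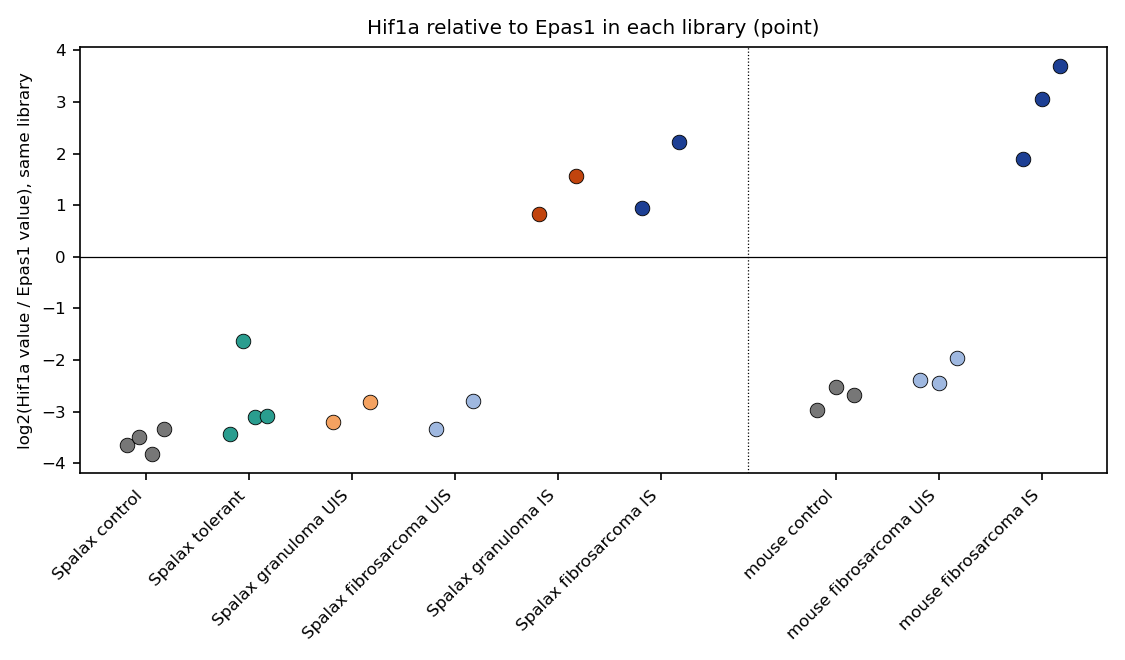
Log2 of the Hif1a value over the Epas1 value of the same library, for each library (point) by group. Spalax tumors lie at 0.83 to 2.22 and the other Spalax libraries at -3.82 to -1.64, while mouse tumors lie at 1.89 to 3.69 and the other mouse libraries at -2.97 to -1.97.

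Hif3a encodes another alpha subunit with splice forms that can dampen the pathway, and it was close to the floor in these tissues. Spalax values ran from 1.21 to 40.0, resting on as few as 1 read (control 2095) and at most 34. The tumors of 600 and 2230 had 23.2 and 13.8, while 976 and 2240 had 1.21 and 1.23, each from 2 reads. On the uninjected sides Hif3a was at 18.1 to 40.0, so 3 of 4 tumors lay below every UIS library and tumor 600 among them. Over all Spalax tumors the log2 fold change was -2.09 ± 0.85 (limma adjusted p = 0.0638), short of the threshold, and it passed without tumor 600 (-2.72, adjusted p = 0.0188) or without tumor 2230 (-2.48, 0.0463). In mouse, both libraries of animal 512 stood out, with 136 in the tumor and 183 on the uninjected side against 3.62 to 24.3 in the other tumor-bearing libraries. The mouse difference between the sides was -0.71 ± 1.44 (limma adjusted p = 0.714), and 0.37 without UIS 512.

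The hydroxylases came next. Egln1 (PHD2) is the main oxygen sensor of the pathway. It was 1156 and 1018 in the granulomas of 600 and 976 against 2463 and 1424 on the uninjected sides, and 1438 and 1053 in fibrosarcomas 2240 and 2230 against 1667 and 2192. Tumor 2240, at 1438, lay just above UIS 976, at 1424, so the pooled groups overlapped. Egln1 was lower in 4 of 4 animals, with log2 differences of -1.09 to -0.21. It passed the test only when the tumors were pooled (-0.71 ± 0.23, limma adjusted p = 0.0247). Scaling libraries by total reads turned the sign to 0.06, while the median of all genes moved from 0.01 to 0.77. The call was also lost without UIS 2230 (-0.64, adjusted p = 0.0709), tumor 2230 (-0.67, 0.0547), UIS 600 (-0.58, 0.0738) or tumor 976 (-0.65, 0.0673).

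Egln1 also fell in mouse. Tumors 1019, 1023 and 512 had 790, 1585 and 2318, against 9584, 8915 and 8194 on the uninjected side, with no overlap. Its log2 fold change was -2.64 ± 0.40 (limma adjusted p = 0.00433), and total-read scaling kept its direction.

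Egln2 (PHD1), a hydroxylase best known for its role in muscle metabolism, did not pass the test between sides in Spalax. The tumors of 600, 976, 2240 and 2230 had 1070, 797, 842 and 1196, and the uninjected sides 999, 708, 870 and 1015. The values lay among each other, with a log2 fold change of 0.11 ± 0.21 over all Spalax tumors (limma adjusted p = 0.675). With total-read scaling, under which the median of all genes moved from 0.01 to 0.77, it was 0.89 and passed (adjusted p = 0.00595). In mouse, Egln2 fell from 2103, 2030 and 2537 to 588, 731 and 590 in 1019, 1023 and 512. The log2 fold change was -1.80 ± 0.21 (limma adjusted p = 0.00236), and every tumor lay below every uninjected side.

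Egln2 was the 1 member past the threshold in the interaction test, which asks whether the response to fibrosarcoma differs between the species. The difference between Spalax and mouse was 1.90 ± 0.34 on the log2 scale (limma adjusted p = 0.0278), where 3.95% of 11264 shared genes passed. With the animal as a block, which is the pairing the labels give, the adjusted p was 0.0827 and no member passed. The genes called then went from 445 to 58. Egln2 on the Spalax uninjected sides (708 to 1015) lay below the Spalax controls (1318 to 1953), a lack of overlap seen for 12.7% of genes. Mouse UIS (2030 to 2537) and control (1780 to 2504) overlapped. The part of this baseline in the interaction was not tested. Egln1 differed by 2.00 ± 0.58 (limma adjusted p = 0.0892) and Vhl by -1.37 ± 0.41 (0.0984), both short of the threshold. Hif1a (1.00 ± 0.44, adjusted p = 0.231), Epas1 (1.50 ± 0.59, 0.185) and Ca9 (-6.24 ± 2.43, 0.18) did not pass either. Leaving out single libraries ended the Egln2 call in 6 of 10 cases, with log2 differences of 1.64 to 2.01 there. These libraries were UIS 2230 (2.01), tumor 2230 (1.64) and UIS 2240 (1.79) of Spalax, and UIS 1023 (1.96), tumor 1023 (2.00) and tumor 512 (1.85) of mouse. Without Spalax tumor 2240, Ca9 passed beside Egln2 (-9.48, adjusted p = 0.0342).

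Egln3 (PHD3), itself a gene that HIF induces, spread widely among the tumors. The granulomas had 884 (600) and 266 (976), against 1011 and 787 on the uninjected side. Fibrosarcoma 2240 had 1624 against 646, and 2230 had 207 against 796. The tumor values thus lay on both sides of the UIS values, and the log2 fold change over all Spalax tumors was -0.59 ± 0.60 (limma adjusted p = 0.434). In mouse, tumors 1019, 1023 and 512 had 130, 1639 and 3976, against 2304, 6072 and 7043. Each mouse was lower on the injected side, with log2 differences of -4.13 to -0.82, but the groups overlapped and the log2 fold change of -2.28 ± 1.23 did not pass (limma adjusted p = 0.171). With the animal as a block it passed (adjusted p = 0.0465).

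Vhl, the substrate receptor of the ligase that removes hydroxylated HIF alpha, did not differ detectably between the sides in Spalax. Tumors 600, 976, 2240 and 2230 had 1489, 1394, 817 and 1299, against 785, 1646, 1087 and 989, so higher and lower animals were equal in number. The log2 fold change over all Spalax tumors was 0.17 ± 0.28 (limma adjusted p = 0.647), and 0.94 (adjusted p = 0.0159) with total-read scaling. Mouse Vhl rose, from 273, 273 and 196 to 543, 671 and 688 in 1019, 1023 and 512. No tumor overlapped the other side, and the log2 fold change was 1.36 ± 0.27 (limma adjusted p = 0.00888).

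**Figure D3:**
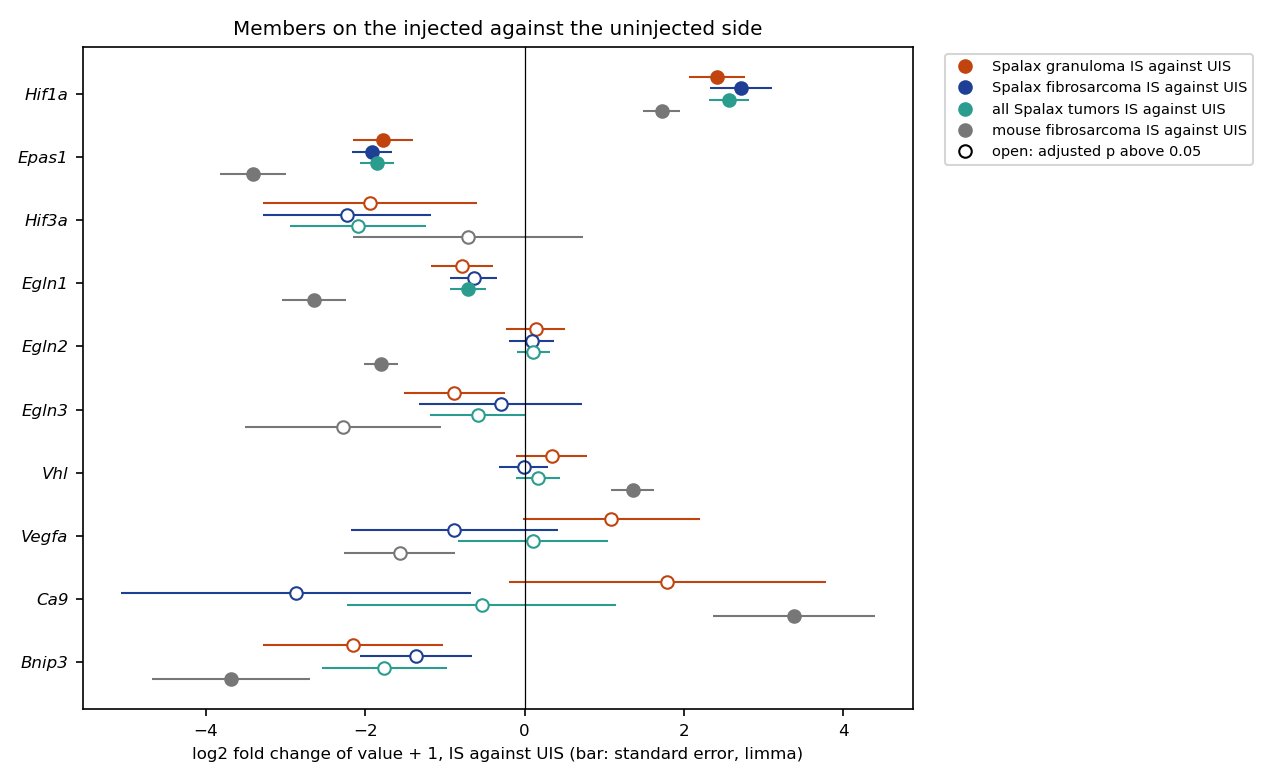
Log2 fold change of value plus 1 on the injected against the uninjected side for the 10 genes, in 4 comparisons (color). Points are limma estimates, bars are standard errors, and filled points have an adjusted p of at most 0.05. Hif1a and Epas1 are filled in all 4 comparisons, while Egln2, Vhl, Ca9 and Bnip3 are filled in mouse only.

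The last 3 members are classical HIF targets. Vegfa encodes the main growth factor for blood vessels. It was 5255 and 841 in the granulomas of 600 and 976, against 2195 and 443, and 5477 and 379 in fibrosarcomas 2240 and 2230, against 2651 and 2649. Vegfa was therefore higher than on the animal's own other side in 3 of 4 Spalax and lower in 2230. The log2 fold change was 1.09 ± 1.11 in granuloma (limma adjusted p = 0.501), -0.88 ± 1.30 in fibrosarcoma (0.629) and 0.11 ± 0.94 over both (0.933). Without granuloma UIS 976 the granuloma value was -0.06. In mouse it was 807, 3987 and 3541 in tumors 1019, 1023 and 512 against 8617, 9636 and 3613, a log2 fold change of -1.57 ± 0.70 that did not pass (limma adjusted p = 0.11).

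Ca9 encodes a cell-surface carbonic anhydrase that exports acid. Its Spalax tumor values were 396 (600), 30.8 (976), 249 (2240) and 1.80 (2230), the last from 3 reads. The uninjected sides had 185, 4.71, 167 and 220. The fibrosarcomas thus bracketed their uninjected sides, and the log2 fold change over all Spalax tumors was -0.54 ± 1.69 (limma adjusted p = 0.812). In granuloma it was 1.79 ± 1.99 (0.537), and -0.72 without UIS 976, which rests on 4 reads. In mouse, Ca9 was at 14.4 to 27.8 on the uninjected side and at 23.4 to 36.7 in controls, and rose to 49.6 (1019), 248 (1023) and 891 (512) in the tumors. This was a log2 fold change of 3.38 ± 1.02 (limma adjusted p = 0.0349). The call was lost without UIS 1019 (3.58, adjusted p = 0.0608), UIS 1023 (3.13, 0.0983), tumor 1023 (3.30, 0.0972), UIS 512 (3.41, 0.0762) or tumor 512 (2.38, 0.0595). In GENCODE vM21, 9.29% of the Ca9 exon bases (chr4:43506966-43513729, plus strand) lie under an antisense gene, and the strand setting of the authors' counting is not stated.

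Bnip3, which marks mitochondria for removal, had the highest level of the members per kilobase in mouse muscle. The granulomas of 600 and 976 had 8800 and 2387, against 7384 and 56784, and fibrosarcomas 2240 and 2230 had 5784 and 1470, against 6891 and 8082. The log2 fold change was -1.76 ± 0.78 over all Spalax tumors (limma adjusted p = 0.0845). In granuloma it was -2.16 ± 1.13 (limma adjusted p = 0.209), and -0.69 without UIS 976, while DESeq2 on all 4 libraries called it (-2.47, adjusted p = 0.0427). In mouse, Bnip3 fell from 11045, 22830 and 60963 to 483, 3088 and 4774 in 1019, 1023 and 512, with no overlap and a log2 fold change of -3.69 ± 0.99 (limma adjusted p = 0.024). Without UIS 512, the highest library, it was -3.04 and missed the threshold (adjusted p = 0.0658), as it did without UIS 1023 (-3.75, 0.062) or tumor 1023 (-4.03, 0.0527). Of the Bnip3 exon bases (chr7:138890836-138909519, minus strand), 22.3% lie under an antisense gene.

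**Figure D4:**
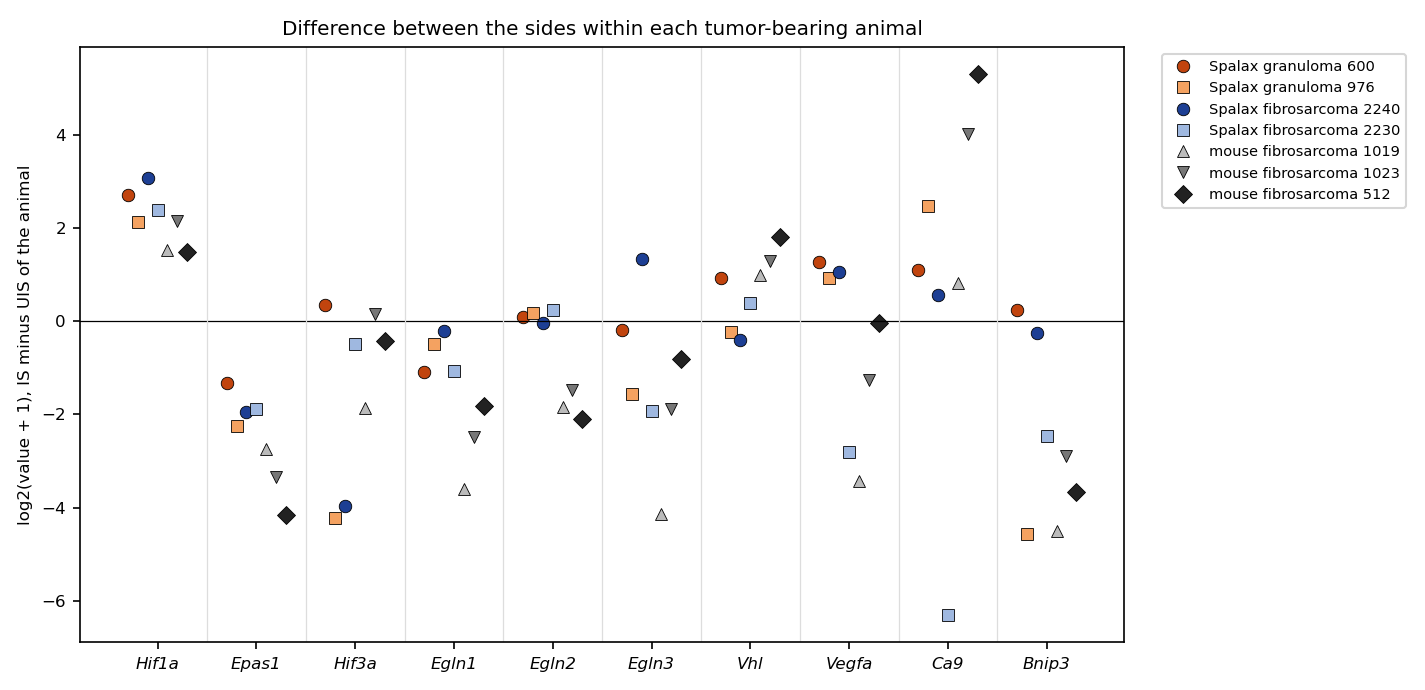
Difference in log2(value + 1) between the injected and the uninjected side of the same animal, for 4 Spalax and 3 mice (symbols) and the 10 genes. Hif1a lies above 0 and Epas1 and Egln1 below 0 in all 7 animals, and Ca9 ranges from -6.31 (2230) to 5.30 (mouse 512).

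Counted over the 10 members, 2 passed in granuloma, where 24.3% of 14735 genes passed, and 2 in Spalax fibrosarcoma, where 36.3% of 14696 did. Over all Spalax tumors 3 of 10 passed against 52.6% of 14431 genes, and in mouse 7 of 10 against 45.1% of 15220. The groups did not overlap for 3 members in granuloma (69.8% of all genes), 5 in Spalax fibrosarcoma (74.3%), 2 over all Spalax tumors (50.0%) and 7 in mouse (60.2%). These shares of members lie near or below those of all genes, other than in mouse, where they were somewhat higher. The median log2 fold change of the members was -0.56 over all Spalax tumors, where that of all genes was 0.01. Leaving out single libraries mattered most with 2 against 2, where it left 1 library in a group. The Hif1a and Epas1 calls were then lost without either granuloma tumor or either fibrosarcoma UIS library, fits in which few or no genes passed. In granuloma, Hif1a was at 2.41 without tumor 600 and 2.42 without tumor 976. Epas1 was at -1.88 without UIS 600 and -1.69 without UIS 976. In fibrosarcoma, Hif1a was at 2.58 without UIS 2230 and 2.87 without UIS 2240. Egln3 was at 1.18 and Vegfa at 1.05 without tumor 2230, and at -1.79 and -2.80 without tumor 2240. In these last fits more genes passed than in the full fit. With 1 library left, its spread is assumed to be that of the other group.

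The interaction test between granuloma and fibrosarcoma called no member and 0% of 15584 genes in limma. At an unadjusted p under 0.05 it held 0 members and 766 genes. Neither edgeR nor DESeq2 called a member there. Fibrosarcoma minus granuloma was -4.66 ± 3.39 for Ca9 (limma adjusted p = 0.946), -1.97 ± 1.96 for Vegfa (0.946) and 0.80 ± 1.53 for Bnip3 (0.96). Without single libraries these ranged from -7.896 to -1.415 for Ca9, -3.894 to -0.044 for Vegfa and -0.667 to 2.275 for Bnip3.

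The spread behind these wide errors is described within each tumor type. The order of the tumors in a pair is arbitrary, so a direction shared by the pairs is a description with no test. Granuloma 600 exceeded granuloma 976 in Vegfa, Ca9, Egln3 and Bnip3, with log2 differences of 2.64, 3.64, 1.73 and 1.88. Fibrosarcoma 2240 exceeded fibrosarcoma 2230 in the same genes, by 3.85, 6.48, 2.96 and 1.98. For Ca9 the 6.48 is a ratio of 89.3 on the scale of value plus 1. The ratio of the Ca9 values themselves was 138, with an exact 95% interval of 47.0 to 674 for counting error, as 2230 had 3 reads. In contrast, Hif1a was equal in both granulomas (3323 and 3312) and differed by 0.97 between the fibrosarcomas.

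At least 2-fold higher values in 600 than in 976 were seen for 5 of 10 members, where 11.4% of 15085 genes were that much higher, and at least 2-fold lower values for 0, against 13.6%. The fifth was Hif3a, with 32 against 2 reads and a ratio of the values themselves of 19.2 (exact 95% interval 4.90 to 166). Between 2240 and 2230, 4 of 10 members were higher (15.7% of 14867 genes) and 1, Hif3a, was lower (17.5%). Of 39 further HIF targets, 38 reached a value of 10 in a tumor of either type. Between 600 and 976, 16 were at least 2-fold higher and 3 lower, and between 2240 and 2230, 22 were higher and 2 lower. These are single tumors without replicates, so the differences have no test and tumor type is not the contrast. The summed macrophage markers (6 genes, none at 0) were 9003 in 600 and 20841 in 976, and 9976 in 2240 and 36214 in 2230. Their part in the differences was not tested.

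**Figure D5:**
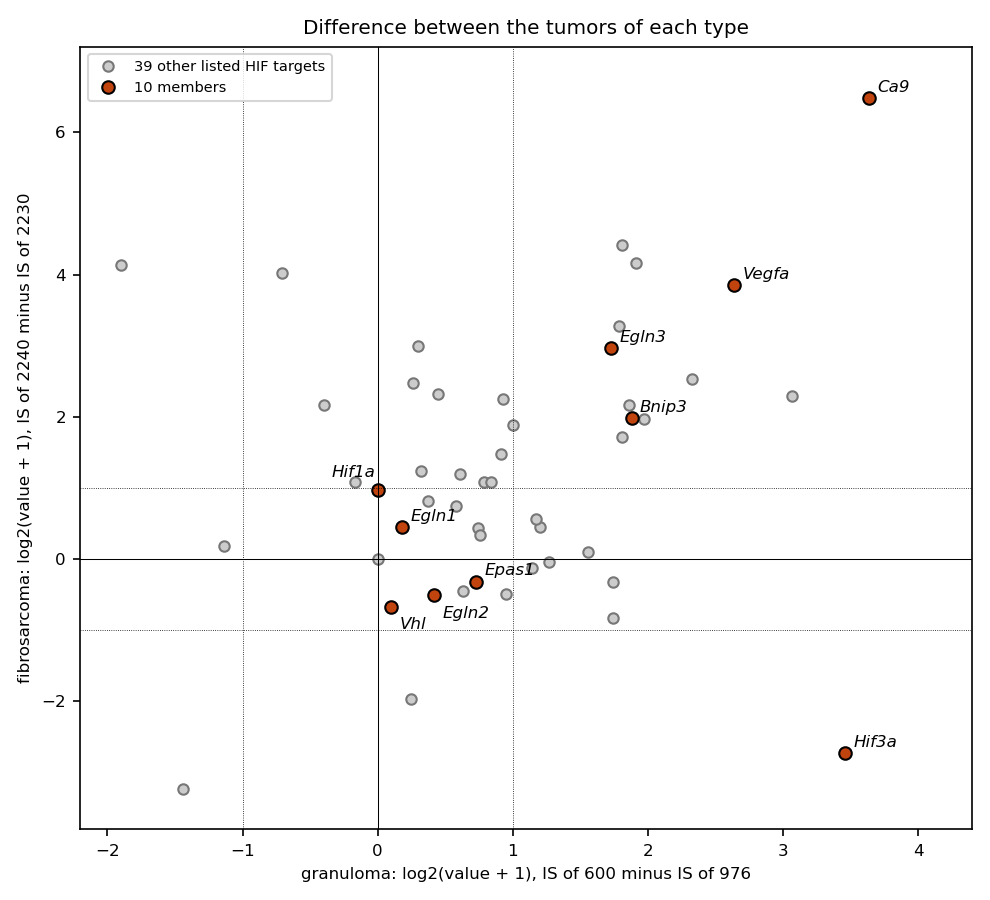
Log2(value + 1) of granuloma 600 minus granuloma 976 (x axis) and of fibrosarcoma 2240 minus fibrosarcoma 2230 (y axis) for the 10 members (red) and 39 other listed HIF targets (gray). Dotted lines mark a 2-fold difference. Vegfa, Ca9, Egln3 and Bnip3 lie at 1.73 to 3.64 on the x axis and 1.98 to 6.48 on the y axis.

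The mouse tumors also differed among themselves. Tumor 1019 had the lowest Vegfa (807), Ca9 (49.6), Egln3 (130) and Bnip3 (483) of the 3, and the highest Epas1 (957). The summed markers of tumors 1019, 1023 and 512 differed as well, none of them at 0. They were 205, 21998 and 71753 for muscle fiber (10 genes), 10866, 3111 and 1854 for endothelial cells (8 genes), and 41806, 25722 and 5051 for macrophages (8 genes). Their part in the differences between these tumors was not tested. As a description over the 16 Spalax libraries and 12612 genes, the gene most like Vegfa by Pearson correlation of log2(value + 1) was Ankrd13b (0.886), followed by Ca9 (0.879) and Nudt6 (0.853). Hif1a was most like Slc30a7 (0.993), Xpo6 (0.990) and Caprin1 (0.983). The nearest genes to Bnip3 were Bysl (0.939), Srp68 (0.938) and Ppp2r2d (0.938), and those to Egln3 were Strap (0.821), Smyd5 (0.820) and Ccdc47 (0.819). The points share libraries, and for Hif1a mainly the split between tumor and muscle.

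Of 15 further genes of HIF regulation, 2 rose and 5 fell over all Spalax tumors, and 1 rose and 6 fell in mouse. Of all genes tested, 26.1% rose and 26.5% fell in Spalax, and 22.8% and 22.3% in mouse, so 7 of 15 called lies near the share of all genes in both species. The rises in Spalax were Siah2, a ligase that degrades Egln proteins (2.41 ± 0.32, limma adjusted p = 0.000278), and Hsp90aa1, a chaperone of HIF alpha (2.40 ± 0.42, 0.00131). Hsp90aa1 also rose in mouse (2.08 ± 0.38, limma adjusted p = 0.00696). Hif1an, the asparagine hydroxylase that blocks HIF activity, fell in both species, at -2.11 ± 0.26 in Spalax (limma adjusted p = 0.000193) and -2.38 ± 0.29 in mouse (0.0024). Cul2, the scaffold of the von Hippel-Lindau ligase, fell likewise, at -1.21 ± 0.28 (limma adjusted p = 0.00554) and -1.29 ± 0.22 (0.00557). The median log2 fold change of the list was -0.59 over all Spalax tumors and -0.61 in mouse, where that of all genes was 0.01 and 0.11. With total-read scaling the balance turned, with 6 rises and 1 fall over all Spalax tumors (median 0.18, all genes 0.77). In mouse there were then 5 rises and 2 falls (0.46, all genes 1.16), so that relative to all genes the medians stayed below. Of all genes, 6564 of 14431 rose and 2147 fell in Spalax under that scaling. In mouse 7559 of 15220 rose and 1675 fell.

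Of 39 further HIF targets, 37 were tested over all Spalax tumors, of which 18 rose and 3 fell, with a median log2 fold change of 1.54. Of all genes 26.1% rose and 26.5% fell, with a median of 0.01. In mouse 38 were tested, of which 8 rose and 8 fell, with a median of 0.10, against 22.8% and 22.3% of all genes and their median of 0.11. With total-read scaling these became 23 rises and 1 fall in Spalax (median 2.31, all genes 0.77), where 6564 of 14431 genes rose and 2147 fell. In mouse they became 15 rises and 2 falls (1.16, the same as the median of all genes), where 7559 of 15220 genes rose and 1675 fell. The matrix targets accounted for 6 of the rises in Spalax, all 6 of that list, among them Lox, which crosslinks collagen (5.86 ± 0.73, limma adjusted p = 0.000193), and Plod2, a collagen lysyl hydroxylase (4.07 ± 0.69, 0.00105). In mouse 3 of those 6 rose, among them Plod2 (3.41 ± 0.67, limma adjusted p = 0.009) and Lox (3.12 ± 0.31, 0.0016). The sum of fibroblast markers (8 genes, none at 0) moved with them. It was 13583 to 40670 on the uninjected side and 122728 to 2051226 in the Spalax tumors, and 4133 to 30924 and 163725 to 183843 in mouse. Over all Spalax tumors 7 of the 8 were higher by their fitted values and 6 were called. In Spalax fibrosarcoma alone 6 were higher and 3 called, and in mouse 8 were higher and 5 called. The sum thus does not stand for each marker. Their part in the matrix targets was not tested.

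Among 11 glycolytic targets, 4 rose and 2 fell over all Spalax tumors, and 1 rose and 6 fell in mouse. Total-read scaling gave 3 rises and 1 fall in mouse, where 7559 of 15220 genes then rose and 1675 fell. The 6 of 11 called in Spalax lie near the 52.6% of all genes, and in mouse 22.8% of all genes rose and 22.3% fell. Aldoa, an aldolase abundant in muscle fibers, fell in both species, with log2 fold changes of -2.92 ± 0.59 in Spalax (limma adjusted p = 0.00262) and -5.12 ± 0.65 in mouse (0.00275). Slc2a1, the basal glucose transporter, rose by 4.24 ± 0.84 in Spalax fibrosarcoma (limma adjusted p = 0.023). The vessel and signaling list gave 4 rises and no fall of 8 in Spalax, and 1 rise and 1 fall of 8 in mouse, beside 26.1% and 22.8% of all genes that rose. With total-read scaling it gave 6 rises and no fall in Spalax, where 6564 of 14431 genes rose. In mouse it then gave 4 rises and 1 fall, where 7559 of 15220 genes rose, so the mouse share lies near that of all genes. The mouse fall without that scaling was Flt1, a receptor for Vegfa (-2.48 ± 0.37, limma adjusted p = 0.00409). The interaction test between the species called 0 of 36 targets in limma, where 3.95% of all genes passed, so that 0 says little about the targets.

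Muscle away from the tumors was compared with untreated muscle next. In Spalax, limma called 0 of 10 members between the 4 UIS and the 4 control libraries, and 0% of 13909 genes. At an unadjusted p under 0.05 there were 2 members and 2315 genes. The groups did not overlap for 3 members, against 12.7% of all genes. Egln2 was 708 to 1015 on the uninjected side and 1318 to 1953 in controls, a log2 fold change of -0.74 ± 0.20 (limma adjusted p = 0.194). DESeq2 called it (adjusted p = 0.034), and edgeR called no member. Hif3a was higher, at 18.1 to 40.0 against 1.25 to 18.0 (2.04 ± 0.68, limma adjusted p = 0.229), and Epas1 lower, at 4581 to 5471 against 5611 to 7061 (-0.33 ± 0.16, 0.338). The nearest Hif3a libraries were UIS 600 (18.1, from 15 reads) and control 1075 (18.0, from 20 reads). They differed by less than the value of 1 read, so the lack of overlap in Hif3a is marginal. Hif3a also passed the filter only through the UIS libraries, as control 1075 alone reached a value of 10 in its group. Its lack of overlap is therefore not read as a result. The Bnip3 difference was 0.57 ± 0.62 (limma adjusted p = 0.646), and -0.16 without granuloma UIS 976. Without that library the differences were -0.63 for Egln2, 1.84 for Hif3a and -0.36 for Epas1. Control libraries carry dual index tags and those of tumor-bearing animals single tags, so index design and group cannot be told apart.

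Between tolerant and control muscle, limma called 0 of 10 members and 0% of 14020 genes, with 1 member and 733 genes at an unadjusted p under 0.05, and neither edgeR nor DESeq2 called a member. Epas1 was the 1 member without overlap (3.86% of all genes). It had 4531, 3301, 4557 and 4129 in tolerant 2218, 2251, 2261 and 2375, and 6450, 7061, 5611 and 6078 in controls 1042, 1075, 2095 and 6038. All tolerant values lay below all control values, with a log2 fold change of -0.62 ± 0.19 (limma adjusted p = 0.78), and -0.51 without 2251. The endothelial marker sum was 7858 to 11011 in tolerant and 11549 to 15016 in control muscle, and its part in the Epas1 difference was not tested. Hif1a differed by 0.14 ± 0.30 (limma adjusted p = 0.969), and by -0.15 without 2251, which had 1056 against 418 to 529 in the other tolerant animals.

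In mouse, limma called 0 of 10 members between UIS and control and 0% of 14792 genes, with 1 member and 1621 genes at an unadjusted p under 0.05. No member was without overlap, against 21.2% of genes, and neither edgeR nor DESeq2 called one. Egln3 was 2304, 6072 and 7043 on the uninjected sides of 1019, 1023 and 512, and 2323, 1567 and 1773 in controls M1, M2 and M5 (1.31 ± 0.44, limma adjusted p = 0.441). The values of 1023 and 512 lay above every control and that of 1019 within them. Bnip3 differed by 1.01 ± 0.58 (limma adjusted p = 0.509). Without UIS 512 the differences were 1.01 for Egln3 and 0.37 for Bnip3. The sum of 6 fat cell markers was 49043 to 85282 in the controls and 1519 to 26634 on the uninjected sides, with all 6 lower by their fitted values, 0 called, and Ucp1 at 0 in UIS 512. Its part in these differences was not tested.

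Levels of untreated muscle were set side by side as CPM, the recovered reads per library total, with TMM scaling over 14772 shared symbols. The species rest on different gene models, so these are descriptions with no test. All Spalax controls were female and all mouse controls male, so species and sex cannot be told apart here. Tissue make-up differed too, as the 6 fat cell markers summed to 172 to 5081 in Spalax controls, with Lep at 0 in 1042 and Ucp1 at 0 in 1075 and 2095, and to 49043 to 85282 in mouse controls. Its part in the species differences was not tested. Ca9 was 11.9 ± 3.57 in Spalax (SD, n = 4) and 1.45 ± 0.344 in mouse (SD, n = 3), and Vhl was 44.5 ± 8.64 and 14.2 ± 2.59. The libraries of the species did not overlap for either gene. The log2 ratio of Spalax to mouse was 2.95 for Ca9 and 1.64 for Vhl, which was above that of 95.4% and 88.9% of 11297 genes. Egln1 stood on the other side, with 109 ± 11.8 in Spalax and 385 ± 51.8 in mouse, a log2 ratio of -1.81 that exceeded that of 12.3% of genes. Hif1a was at 27.8 ± 5.81 and 62.9 ± 11.8 (-1.17, above 20.2% of genes), and Vegfa at 119 ± 35.7 and 299 ± 79.6 (-1.32, above 17.9%), neither with overlap. The share of all genes without overlap between the species was not counted. The lack of overlap therefore says nothing particular to these members. Epas1 (327 ± 35.5 and 424 ± 117), Bnip3 (442 ± 124 and 617 ± 57), Egln2 (77.8 ± 14.9 and 103 ± 20.7) and Egln3 (67.3 ± 37.5 and 94.3 ± 19.2) overlapped between the species. Hif3a, near the floor, overlapped as well, at 0.425 ± 0.4 and 1.93 ± 1.46 (-1.95, above 11.1% of genes).

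Within mouse, levels were compared between genes as value per kilobase of exon. In control muscle the order of means was Bnip3 (5455 ± 558, SD, n = 3), Egln1 (2141 ± 273), Epas1 (1518 ± 430), Vegfa (1394 ± 356), Egln2 (734 ± 140), Egln3 (709 ± 147), Hif1a (214 ± 42.2), Vhl (95.0 ± 17.7), Ca9 (12.6 ± 2.97) and Hif3a (5.78 ± 4.39). The ranges of Epas1 and Vegfa overlapped, as did those of Egln2 and Egln3, and the other neighbors in the order did not. In the tumors Bnip3 still had the highest mean (1228 ± 954), while Hif1a (717 ± 153), Egln3 (719 ± 728) and Vegfa (648 ± 402) overlapped with it and with each other. Epas1 (113 ± 58.5) was then below Vhl (211 ± 26.5) without overlap.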

How the data were processed

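RNA-seq libraries of 16 Spalax and 9 mouse samples were analysed. The authors trimmed single-end reads of strand-specific libraries, aligned them with TopHat to the published Spalax genome or a mouse genome, counted reads per gene with HTSeq, and deposited a normalised signal per gene, namely read counts divided by 1 size factor per library (DESeq). The submitters' processing notes name GRCm38 and TopHat 1.4.1. A comma in 2387 Spalax gene names stood for the letter t, and values were read from the line end. In each library 100% of values were whole multiples of 1 read within 0.05, so reads were recovered.

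The main test was limma 3.58.1 (R 4.3.3; lmFit, eBayes with trend) on log2(value + 1), with only the groups compared in the fit. Genes entered when the number of libraries at a value of 10 or more reached the size of the smallest group. Benjamini-Hochberg adjustment ran over all tested genes, and calls were made at 0.05. Fold changes on this scale understate low genes. Alternatives were edgeR 4.0.16 and DESeq2 1.42.0 on the recovered reads (calling 7652 and 8290 genes over all Spalax tumors, where limma called 7586), a pseudocount of 0.1, no filter, total-read scaling, the animal as a block, tumor type as a covariate, a model over all libraries of a species, and leaving out each library. Only limma was checked on simulated data, in some of the comparisons. The simulated data held fewer changed genes than were called here, the same spread for all genes and no changed gene near the floor. That check therefore covers neither the count tests nor such genes.

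IS and UIS libraries of an animal share its number and are paired by animal. The correlation of their deviations from the group means was 0.01 in granuloma, 0 in Spalax fibrosarcoma and 0.05 to 0.18 in mouse. The 25 pairs of replicates were compared, and none was a copy (chi-square per degree of freedom of at least 45). Intervals cover counting error only, since reads carry no molecular identifiers.

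The members and lists were chosen with earlier results of these data known. Named are the 10 members, per comparison of sides up to 3 called rises and 3 called falls of the HIF regulation and target lists, and the 3 genes most like Hif1a, Vegfa, Bnip3 and Egln3. A gene named by this rule is not reported here. Lists hold 15, 39 and, for markers, 6 to 10 genes. Myh1, Myh2, Myh4, Adgre1 and Lyz2 are not listed in the Spalax table under these symbols. Figures were drawn with matplotlib 3.10.9.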

Additional observations from a re-analysis of the deposited data

Results flagged for a closer look

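Of 40 sets of 4 libraries tested over the members, 5 held a library whose gap to its nearest neighbor, divided by the whole range on the log2(value + 1) scale, exceeded Dixon's 95% critical value. Chance alone marks about 1 in 20 such sets. Of the 5, 3 were from granuloma UIS 976, with Vegfa at 443, Ca9 at 4.71 and Bnip3 at 56784. The others were Egln2 in control 2095, at 1953, and Vhl in tolerant 2251, at 1360. The Egln2 response to fibrosarcoma differed between Spalax and mouse by 1.90 on the log2 scale, by the interaction test of the difference itself (limma adjusted p = 0.0278, and 0.0827 with the animal as a block). On the Spalax uninjected sides Egln2 lay below the Spalax controls, and the part of this in the difference was not tested.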

How the results depend on the processing

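Fold changes were tallied for every member in the comparisons of sides, and elsewhere only for members whose values are given. Fits without an adjusted p were left out. Over alternatives other than leaving out a library, 346 of these fold changes kept direction and side of the threshold, 14 changed sign, 7 gained a call and 3 lost it. Leaving out single libraries gave 302, 25, 9 and 28. The number of members called in granuloma went from 2 to 1 with edgeR (Epas1 at -1.67, adjusted p = 0.0507) and with total-read scaling (-1.05, 0.0767), and to 3 with DESeq2, which added Bnip3 (-2.47, adjusted p = 0.0427). It went from 0 to 1 with DESeq2 between Spalax UIS and control. In the species interaction it went from 1 to 3 with DESeq2 and to 0 with the animal as replicate block. That block added Egln3 in mouse, and changed no other call of a member. Leaving out single libraries gave 2 to 4 members over all Spalax tumors, where 6667 to 7856 of 14431 genes passed. It gave 5 to 7 in mouse, where 4238 to 7023 of 15220 did. In the comparisons with 2 Spalax libraries per group it left 1 in a group, so no member count is given.

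Signs turned in Spalax fibrosarcoma with edgeR for Egln3 (0.34), Vhl (0.021) and Vegfa (0.14), with DESeq2 for Egln3 (0.30) and Vegfa (0.10), and with total-read scaling for Egln1 (0.17), Egln3 (0.50) and Vhl (0.80). Over all Spalax tumors Ca9 turned with edgeR (0.24), DESeq2 (0.20) and total-read scaling (0.17), and Egln1 (0.062) and Egln3 (0.18) with the last. Mouse Hif3a became 0.30 with total-read scaling. That scaling also moved the median of all genes, from 0.03 to 0.83 in Spalax fibrosarcoma, 0.01 to 0.77 over all Spalax tumors and 0.11 to 1.16 in mouse. A sign turned by it is therefore no change of place relative to all genes. The cause of the turns with edgeR and DESeq2 was not tested. Without single libraries, granuloma ranged from -0.11 to 0.38 for Egln2, -0.19 to 0.88 for Vhl, -0.23 to 2.41 for Vegfa and -0.72 to 4.30 for Ca9. Fibrosarcoma ranged from -0.16 to 0.35 for Egln2, -1.79 to 1.18 for Egln3, -0.34 to 0.32 for Vhl, -2.80 to 1.05 for Vegfa and -6.11 to 0.37 for Ca9. All Spalax tumors ranged from -0.52 to 0.84 for Vegfa and -1.80 to 0.89 for Ca9, and mouse Hif3a from -1.93 to 0.52. Bnip3 ranged from -0.16 to 0.86 between UIS and control and from -0.67 to 2.28 between tumor types, and Hif1a from -0.15 to 0.30 between tolerant and control.

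Over all genes, DESeq2 called 5383 in granuloma (limma 3581), 520 between UIS and control, 60 between tolerant and control and 342 in mouse UIS against control (limma 0 in each), 1752 in the species interaction (limma 445) and 84 between tumor types (limma 0). edgeR called 0 genes in the 4 comparisons where limma called 0. A model over all Spalax libraries called 6314 in granuloma, 1 between UIS and control and 1 between tolerant and control, where no filter gave 2. Total-read scaling moved the rises and falls called in granuloma from 1718 and 1863 to 3370 and 1126, in fibrosarcoma from 2550 and 2789 to 5175 and 1665, over all Spalax tumors from 3767 and 3819 to 6564 and 2147, and in mouse from 3469 and 3401 to 7559 and 1675. Without single libraries, calls ranged from 98 to 2882 in granuloma, 0 to 8397 in fibrosarcoma, 4 to 794 in the species interaction and 0 to 4 between tumor types. With 2 libraries against 2 the calls depend on every library, and Hif3a and the lowest Ca9 values are limited by reads.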
